A study of Mus musculus with 6 samples.

Results

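The genes described here were 10 long noncoding RNAs, namely Malat1, Neat1, Gas5, Snhg1, Snhg3, Snhg5, Snhg6, Snhg8, Snhg12 and Epb41l4aos. They were chosen by name, and all 10 were found among the 52636 gene identifiers of the count table. The study sequenced 3 libraries each of J110 and SSM3 cells, which are mouse mammary tumour cell lines grown in culture. It asked which mammary cell lineage signatures each line expressed, and it concluded that SSM3 was estrogen receptor-positive. J110 cells came from a mammary tumour of a mouse carrying an AIB1 cDNA under the MMTV promoter, which drives expression in mammary epithelium. SSM3 cells came from a mammary tumour of a mouse of the 129SvEv strain. No drug treatment separated the groups, and each group was 1 line. The lines were kept at different levels of serum and CO2 and with different medium supplements, so line, genotype and culture medium cannot be told apart in any comparison below. The libraries of a line were biological replicates by the study's methods, which do not say how the cultures were separated, and the p-values measure the spread between these libraries.

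Malat1 and Neat1 are long, mostly nuclear RNAs. Malat1 gathers at nuclear speckles, which store splicing factors, whereas Neat1 is the scaffold on which paraspeckles assemble. Neat1 is made in a short polyadenylated form and a long form that ends without a templated polyadenylation signal, and the long form is needed to build a paraspeckle. Malat1 ends without a poly(A) tail as well, because an enzyme trims a tRNA-like structure off its 3′ end and leaves a triple helix at an A-rich tract. The other RNAs are spliced hosts that carry small nucleolar RNAs (snoRNAs) in their introns. The snoRNAs guide chemical modification of ribosomal RNA, whereas the spliced host is exported and, for several hosts, is destroyed by nonsense-mediated decay while it is translated. Several host genes begin with a run of pyrimidines, as the mRNAs of ribosomal proteins do.

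The libraries were made by priming from poly(A) with oligo-dT (QuantSeq 3′), so a count reports reads near a poly(A) tail or an internal A-rich stretch, not the whole transcript. The sequences at which such priming could begin are therefore shown first. In the last 50 bases of the most distal annotated transcript of each gene (GENCODE M21, mm10), the letters AATAAA or ATTAAA, the commonest polyadenylation signals, are in capitals, and in Snhg8 the pair overlaps. Neat1-202, the short form, was added by hand, and the sequence of Epb41l4aos is not shown.
Malat1-201, chr19:5795690-5795739, minus strand: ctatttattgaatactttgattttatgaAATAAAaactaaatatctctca
Neat1-201, chr19:5824708-5824757, minus strand: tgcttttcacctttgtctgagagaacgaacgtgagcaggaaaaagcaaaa
Neat1-202, chr19:5842307-5842356, minus strand: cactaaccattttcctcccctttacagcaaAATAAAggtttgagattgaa
Gas5-209, chr1:161038490-161038539, plus strand: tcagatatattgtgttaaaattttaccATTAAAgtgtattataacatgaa
Snhg1-206, chr19:8726394-8726443, plus strand: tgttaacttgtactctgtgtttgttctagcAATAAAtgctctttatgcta
Snhg3-205, chr4:132348014-132348063, minus strand: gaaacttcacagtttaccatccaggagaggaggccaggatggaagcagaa
Snhg5-202, chr9:88521050-88521099, minus strand: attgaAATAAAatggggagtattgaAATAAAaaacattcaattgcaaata
Snhg6-203, chr1:9941959-9942008, minus strand: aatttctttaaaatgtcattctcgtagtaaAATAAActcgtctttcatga
Snhg8-201, chr3:123507552-123507601, minus strand: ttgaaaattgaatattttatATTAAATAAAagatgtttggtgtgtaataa
Snhg12-201, chr4:132310975-132311024, plus strand: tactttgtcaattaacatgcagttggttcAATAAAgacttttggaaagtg

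Of these ends, the long Neat1-201 form and Snhg3-205 held neither signal. Other Snhg3 transcripts did, 3 of the 5 annotated, as did both transcripts of Epb41l4aos. The signals were searched on the transcript strand in the last 40 bases, where 32.6% of all 141767 annotated transcripts had one. Neat1-201 is 20771 bases long and Neat1-202 is 3004. Stretches with at least 15 A in 20 bases, at which oligo-dT could also anneal, were found within Malat1, Neat1, Snhg5 and Snhg12 transcripts. In Malat1 the stretch covered bases 6671 to 6695 and lay 288 bases before the annotated end, and in Neat1-201 it covered bases 11341 to 11386, beyond the length of the short form. Both are printed with the A-rich stretch in capitals.
Malat1-201, chr19:5795961-5796020, minus strand: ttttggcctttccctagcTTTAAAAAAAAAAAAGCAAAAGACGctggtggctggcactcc
Neat1-201, chr19:5834086-5834145, minus strand: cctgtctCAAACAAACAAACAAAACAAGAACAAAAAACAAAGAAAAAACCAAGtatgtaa
One gene-level count per library was deposited, so reads of the short and the long Neat1 forms cannot be told apart.

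The starts of the host genes are shown because a pyrimidine run at the first base marks the mRNAs whose translation follows growth signals. Windows of 50 bases around the annotated start were taken from RefSeq (GRCm38.p6) for the 7 genes matched in that table, with the longest run of C and T between 5 bases before and 20 bases after the start in capitals. Neat1, Snhg6 and Epb41l4aos were not matched.
Snhg1, chr19:8723477-8723526, plus strand: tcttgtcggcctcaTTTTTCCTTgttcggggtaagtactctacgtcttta
Snhg12, chr4:132308668-132308717, plus strand: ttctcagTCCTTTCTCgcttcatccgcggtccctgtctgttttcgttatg
Snhg5, chr9:88522858-88522907, minus strand: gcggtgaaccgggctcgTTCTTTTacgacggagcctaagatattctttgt
Snhg8, chr3:123508297-123508346, minus strand: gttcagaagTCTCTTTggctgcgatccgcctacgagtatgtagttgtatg
Gas5, chr1:161035156-161035205, plus strand: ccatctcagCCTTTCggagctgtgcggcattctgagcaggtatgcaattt
Snhg3, chr4:132353647-132353696, minus strand: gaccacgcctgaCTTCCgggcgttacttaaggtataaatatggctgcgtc
Malat1, chr19:5802633-5802682, minus strand: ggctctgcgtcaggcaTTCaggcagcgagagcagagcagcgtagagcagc

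The run was 9 bases long in Snhg1 and Snhg12, 7 in Snhg5 and Snhg8, 6 in Gas5, 5 in Snhg3 and 3 in Malat1. Counted from 1 at the annotated start, with -1 the base before it, the run began at -3 in Snhg12 and at -1 in Snhg8 and Gas5, so it covered the first base in these 3 genes. In Snhg3, Snhg1, Malat1 and Snhg5 it began further in, at bases 3, 5, 7 and 8. A second RefSeq start of Gas5, further upstream, had a run of 3. Of all 32851 start windows in the table, 40.2% held a run of at least 5 bases and 13.65% one of at least 7, so a run of this length is common and is given as a description. The hosts with the longest runs did not share a direction between the lines, since Snhg1 and Snhg12 were higher in SSM3 cells and Snhg5 and Snhg8 lower.

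The library totals ran from 4200785 to 5416305 counts. A count of 3, the floor used here for detection, corresponded to 0.578 to 0.668 CPM (counts-per-million, each gene’s count over a library total adjusted by TMM, a trimmed mean of gene ratios), and the common biological coefficient of variation was 8.30%. Reads on 3 genes of a ribosomal RNA locus made up 15.05 to 17.16% of the J110 libraries and 0.779 to 1.27% of the SSM3 libraries, which lowers the unscaled share of every other gene in J110. Of the epithelial markers, Krt8 and Krt18 were abundant in all 6 libraries, whereas Epcam had 1 to 7 counts in J110 and 2376 to 2412 in SSM3, Cdh1 had 11 to 28 and 6019 to 7179, and Krt19 had 59 to 143 and 32985 to 38701. Of the 5 epithelial markers, 3 were thus far lower in the libraries labelled J110, with Epcam near 0. The fibroblast markers Col1a1, Col1a2, Col3a1 and Lum had at most 6 counts in a library, the leukocyte markers Ptprc, Cd3e and Itgam at most 2, and the endothelial markers Pecam1, Kdr and Tie1 at most 11. Ncoa3, the mouse gene for AIB1, had 102 to 110 counts in J110 and 181 to 199 in SSM3. Tags outside the part of the gene carried by the transgene do not check the label, and the directions below rest on the library labels.

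Malat1, Neat1, Gas5, Snhg5, Snhg6 and Snhg8 were lower in SSM3 cells and Snhg1, Snhg3 and Snhg12 were higher, while Epb41l4aos did not pass the test. All 10 passed the filter on low counts, and 9 were called at an adjusted p below 0.05 by edgeR's quasi-likelihood test with Benjamini-Hochberg adjustment. The lines differed across most of the transcriptome, however: 77.9% of the 12284 genes tested were called, 38.6% as higher in SSM3 and 39.2% as lower. A count of 9 of 10 is therefore near the background and is no result about these RNAs. The libraries of the lines did not overlap for 9 of the 10, against 79.6% of all genes tested. When the difference had to exceed 2-fold (edgeR's glmTreat), 5 of the 10 were called, against 34.8% of all genes, with Snhg3 and Snhg12 higher in SSM3 cells and Malat1, Gas5 and Snhg6 lower. The median log2 fold change (SSM3 over J110) was -0.83 over the 10 RNAs and -0.01 over all genes. In such bulk libraries, fewer cells making an RNA and less RNA in each cell cannot be told apart.

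**Figure D1:**
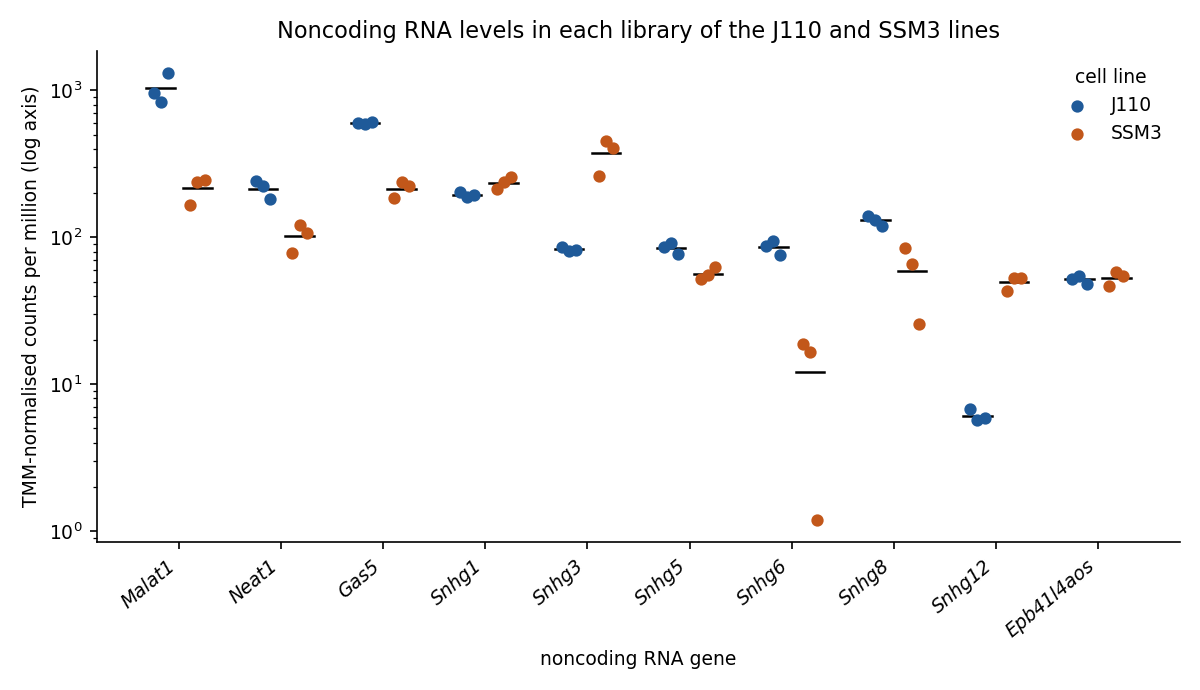
TMM-scaled CPM (log axis) for each of the 10 noncoding RNAs, with 1 point per library, J110 in blue, SSM3 in orange and a black line at the mean of 3 libraries. The points of the 2 lines overlap only for Epb41l4aos, and the lowest point of the plot is Snhg6 in SSM3 replicate 3 at 1.19.

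Malat1, the speckle RNA (chr19:5795690-5802672, minus strand, exonic over its whole length in the longest transcript), was lower in SSM3 cells. The J110 libraries held 957, 839 and 1312 CPM and the SSM3 libraries 167, 238.1 and 246.1. Every J110 library lay above every SSM3 library, and the third J110 library was the highest. The mean was 1036 ± 246 in J110 and 217 ± 43.5 in SSM3 (SD, n = 3 libraries each), a 4.77-fold lower level in SSM3. The log2 fold change was -2.25 with a standard error of 0.15 and an edgeR adjusted p of 7.6e-10.

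Neat1, the paraspeckle scaffold (chr19:5824708-5845478, minus strand), is the next long noncoding RNA of the 10 beside Malat1 on chromosome 19. Its level was 240.4, 222.7 and 181.3 CPM in the J110 libraries and 77.71, 120.6 and 107.3 in the SSM3 libraries. The groups did not overlap, but the gap between the lowest J110 and the highest SSM3 library was smaller than for Malat1. The mean fell from 215 ± 30.3 to 102 ± 22.0 (SD, n = 3), with a log2 fold change of -1.08, a standard error of 0.13 and an edgeR adjusted p of 1.3e-06. Neat1 was not called when the difference had to exceed 2-fold (glmTreat adjusted p = 0.285).

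Both RNAs were also expressed as a share of all counts, which uses the library total alone in place of TMM scaling. Malat1 held 0.0916%, 0.0793% and 0.121% of counts in the J110 libraries and 0.0178%, 0.0255% and 0.0258% in the SSM3 libraries. The widest Wilson 95% interval among them, that of J110 replicate 3, ran from 0.118% to 0.124%, so the spread between libraries was larger than counting error, which is all that such an interval covers. Neat1 held 0.0230%, 0.0211% and 0.0167% in J110 and 0.00831%, 0.0129% and 0.0112% in SSM3. The difference in means (SSM3 minus J110) was -0.0742 percentage points for Malat1 and -0.00942 for Neat1, each with an exact two-sided permutation p of 0.1, the smallest that 3 against 3 libraries allow. Leaving the ribosomal RNA locus out of the totals widened these to -0.0928 and -0.0132 points.

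The ratio of Malat1 to Neat1 counts within a library compares the pair without any total. It was 3.98, 3.77 and 7.23 in J110 and 2.15, 1.97 and 2.29 in SSM3. All J110 ratios lay above all SSM3 ratios, and J110 replicate 3 stood apart because its Malat1 count was the highest and its Neat1 count the lowest of that line. The mean log2 ratio was 2.25 ± 0.52 in J110 and 1.09 ± 0.11 in SSM3 (SD, n = 3), with an exact two-sided permutation p of 0.1, again the smallest possible. A ratio of counts from a 3′ method is not a ratio of molecules.

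**Figure D2:**
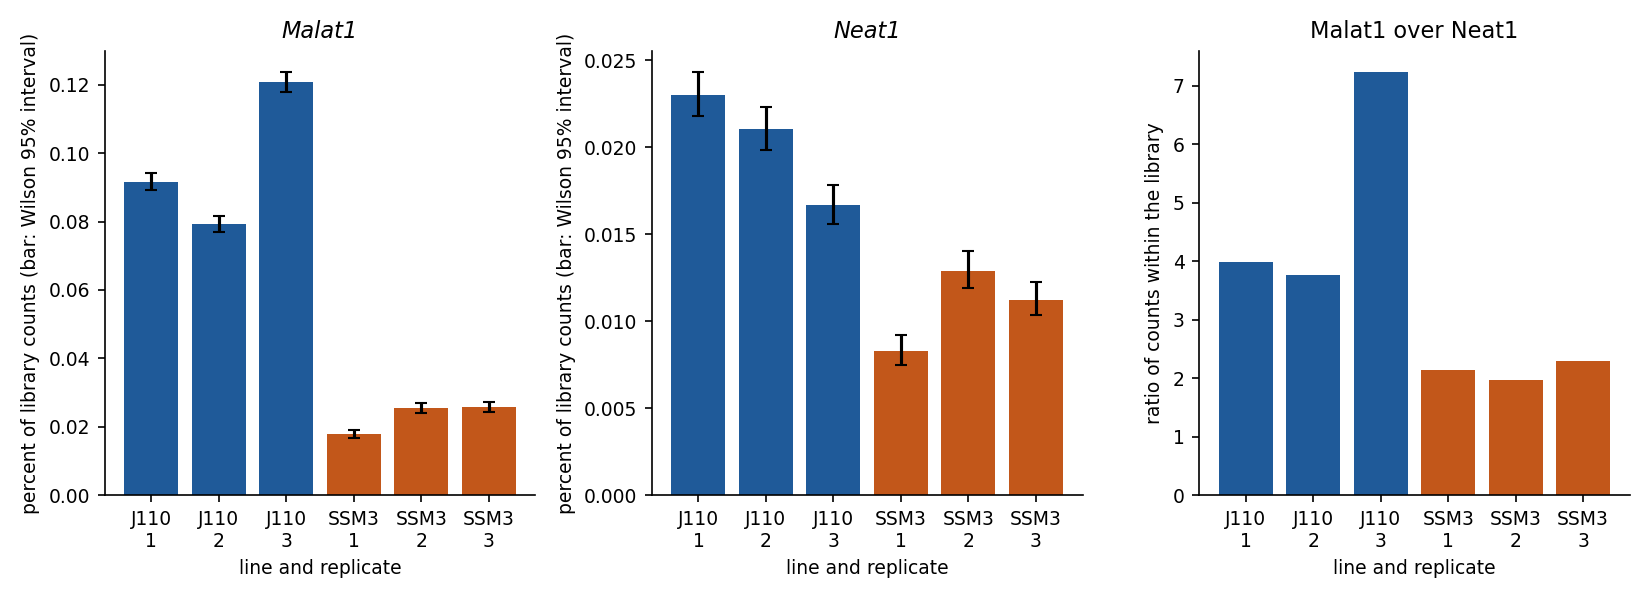
Share of library counts held by Malat1 (left) and Neat1 (middle), as percent with Wilson 95% intervals, and the ratio of their counts (right), for each library. Malat1 spans 0.0793 to 0.121% in J110 (blue) and 0.0178 to 0.0258% in SSM3 (orange), and the ratio is highest in J110 replicate 3 at 7.23.

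The annotation places a second gene, Gm37376, on the opposite strand across bases 280 to 732 of Malat1, near its 5′ end and far from both the annotated 3′ end and the A-rich stretch printed above. Gm37376 had 908, 704 and 1328 counts in J110 and 117, 209 and 194 in SSM3, equal to 16.6 to 21.1% of the Malat1 count in J110 and 15.6 to 18.6% in SSM3. The libraries with the highest and the lowest Malat1 count were also the highest and the lowest for Gm37376 in J110, whereas in SSM3 the highest library was replicate 3 for Malat1 and replicate 2 for Gm37376. The strand setting of the counting is not given in the sources used here, so reads of Malat1 and of Gm37376 cannot be told apart. An annotated short transcript, Malat1-203, ends at position 5801916, next to this window.

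The protein-coding gene nearest to Neat1 differed in the opposite direction. Frmd8, which lies 4224 bases away, was higher in SSM3 at 101 ± 3.14 against 77.6 ± 4.30, with a log2 fold change of 0.37 (edgeR adjusted p = 6.9e-04).

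Gas5 (chr1:161034422-161038539, plus strand), whose introns hold a series of box C/D snoRNAs, was lower in SSM3 cells. Its level was 598, 590.8 and 610.2 CPM in the J110 libraries, and 183.9, 236.4 and 223.9 in the SSM3 libraries. The J110 values lay within 1.03-fold of each other and far above all SSM3 values. The means were 600 ± 9.79 and 215 ± 27.4 (SD, n = 3), with a log2 fold change of -1.48, a standard error of 0.085 and an edgeR adjusted p of 9.7e-11. Reads on the 9 snoRNA genes within Gas5 added up to 62 to 97 counts in J110 and 44 to 63 in SSM3, or 2.12 to 3.13% and 5.12 to 5.60% of the host's count. The annotated span of Gas5 overlaps that of the oppositely oriented Zbtb37 without a shared exonic base.

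Snhg5 (chr9:88521050-88522929, minus strand), host of Snord50a and Snord50b, was lower in SSM3 cells by a smaller margin. It had 85.40, 91.97 and 76.58 CPM in J110 and 52.11, 55.21 and 62.48 in SSM3, without overlap. The means were 84.7 ± 7.72 and 56.6 ± 5.32 (SD, n = 3), and the log2 fold change was -0.58 with a standard error of 0.099 and an edgeR adjusted p of 5.4e-05. Neither of its snoRNAs had a count in any library.

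Snhg12 (chr4:132308623-132311024, plus strand) and Snhg3 (chr4:132348014-132353686, minus strand) lie near each other on chromosome 4 in opposite orientations, and both were higher in SSM3 cells. Snhg12, host of Snora44, Snora61, Snora16a and Snord99, had 6.75, 5.74 and 5.84 CPM in J110 and 42.98, 52.66 and 52.93 in SSM3. The SSM3 libraries all lay far above the J110 libraries. The means were 6.11 ± 0.56 and 49.5 ± 5.67 (SD, n = 3). The log2 fold change fitted by edgeR was 3.01, or 8.08-fold, with a standard error of 0.16 and an edgeR adjusted p of 2.8e-11. In raw terms Snhg12 had 28 to 35 counts in a J110 library and 193 to 266 in an SSM3 library.

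The snoRNA genes within Snhg12 had no more reads in SSM3 cells than in J110 cells. Their summed reads were 14, 15 and 20 in J110 and 10, 12 and 11 in SSM3, after a duplicate model of Snora16a was left out. These reads equalled 40, 51.7 and 71.4% of the Snhg12 count in the J110 libraries and 5.18, 4.84 and 4.14% in the SSM3 libraries. The 2 sets of shares did not overlap. Mature snoRNAs have no poly(A) tail, so this method does not measure their level, and the numbers of reads are small. Both models of Snora16a had identical counts in every library, as had both models of Snord80, so a read falling on several genes appears to have been counted on each, and the snoRNA reads may lie within the host's count.

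Snhg3, host of Snora73a and Snora73b, had 85.79, 80.10 and 82.22 CPM in J110 and 261.9, 454.7 and 405.1 in SSM3. All SSM3 libraries were higher than all J110 libraries, with SSM3 replicate 1 the lowest of its line. The means were 82.7 ± 2.87 and 374 ± 100 (SD, n = 3), with a log2 fold change of 2.18, a standard error of 0.15 and an edgeR adjusted p of 9.4e-10. Snhg3 shares 705 exonic bases with Gm17300, a noncoding gene on the opposite strand, which had 460, 423 and 419 counts in J110 and 1258, 2198 and 2121 in SSM3. Those counts equalled 103 to 107% of the Snhg3 count in all 6 libraries, so the rise cannot be assigned to either gene. Snhg3 also overlaps Rcc1 on the same strand and shares 135 exonic bases with it. Rcc1, a chromatin-bound exchange factor for Ran, had 118 ± 4.70 CPM in J110 and 107 ± 10.6 in SSM3 (edgeR adjusted p = 0.168).

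Snhg1 (chr19:8723475-8726443, plus strand), host of several box C/D snoRNAs, was higher in SSM3 by the smallest margin of the RNAs that passed the test. It had 203.0, 187.1 and 195.1 CPM in J110 and 212.7, 237.0 and 256.7 in SSM3. The groups did not overlap, although the highest J110 library lay close to the lowest SSM3 library. The means were 195 ± 7.95 and 235 ± 22.1 (SD, n = 3), with a log2 fold change of 0.27, a standard error of 0.081 and an edgeR adjusted p of 0.0059. Slc3a2, an amino acid transporter subunit that begins 106 bases away on the opposite strand, was higher in SSM3 by a log2 fold change of 0.32 (edgeR adjusted p = 0.0014).

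Epb41l4aos, host of a single annotated snoRNA, did not pass the test. It had 52.24, 54.79 and 48.20 CPM in J110 and 46.76, 58.19 and 54.32 in SSM3, and the groups overlapped. The log2 fold change was 0.04 with a 95% interval from -0.18 to 0.26 and an edgeR adjusted p of 0.748. Epb41l4a, the protein-coding gene that lies 341 bases away on the other strand, was lower in SSM3 at 15.6 ± 2.27 CPM against 25.4 ± 3.79, with a log2 fold change of -0.70 (edgeR adjusted p = 7.9e-04).

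**Figure D3:**
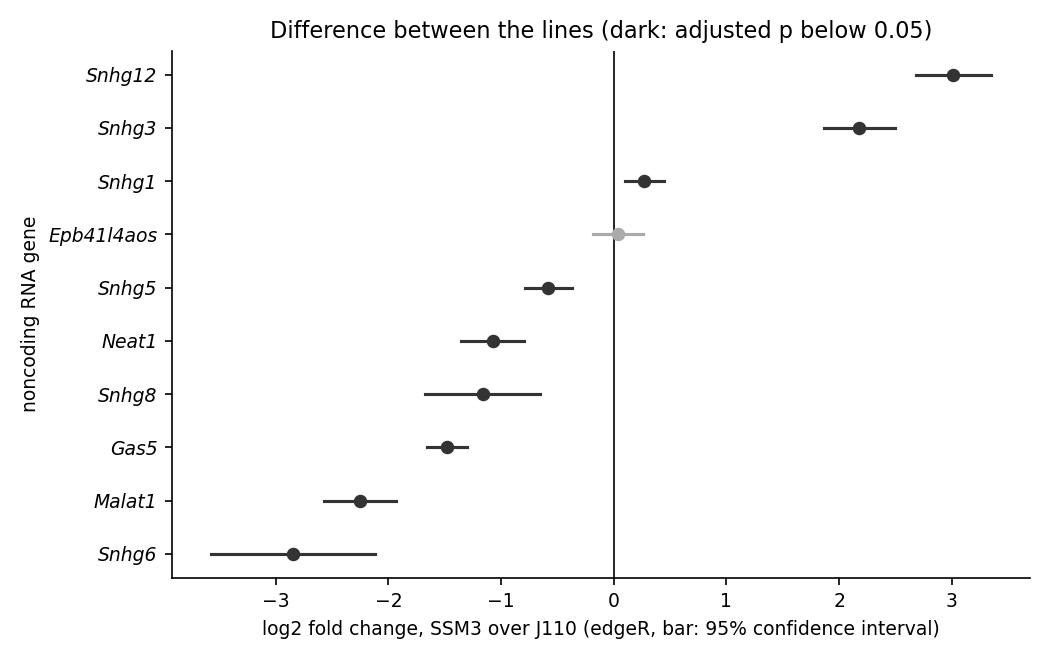
Log2 fold change of SSM3 over J110 for each noncoding RNA (edgeR), with 95% confidence intervals, dark where the adjusted p was below 0.05 and grey otherwise. Snhg12 (3.01) and Snhg6 (-2.85) mark the ends, and the intervals of Snhg6 and Snhg8 are the widest.

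Snhg6 and Snhg8 were lower in SSM3 cells, but their values in that line differed widely between libraries. Snhg6 (chr1:9941959-9944118, minus strand), host of Snord87, had 452, 478 and 362 counts in J110 and 84, 78 and 6 in SSM3. All SSM3 libraries lay below all J110 libraries, and SSM3 replicate 3 was far below the other two. After scaling these were 87.14, 94.54 and 75.54 CPM in J110 and 18.70, 16.56 and 1.19 in SSM3. The means were 85.7 ± 9.58 and 12.2 ± 9.55 (SD, n = 3), with a log2 fold change of -2.85, a standard error of 0.34 and an edgeR adjusted p of 1.1e-06. Without SSM3 replicate 3 the log2 fold change was -2.28 (edgeR adjusted p = 4.1e-14).

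Snhg8 (chr3:123507552-123508404, minus strand), host of Snora24, had 140.5, 130.7 and 119.4 CPM in J110 and 83.95, 65.83 and 25.87 in SSM3. The lines did not overlap, and SSM3 replicate 3 was again the lowest library. The means were 130 ± 10.6 and 58.6 ± 29.7 (SD, n = 3), with a log2 fold change of -1.16, a standard error of 0.24 and an edgeR adjusted p of 3.4e-04. Without SSM3 replicate 3 the log2 fold change was -0.80 (edgeR adjusted p = 3.5e-07). The genes that flank Snhg8, Prss12 and Ndst3, had 5.21 ± 1.05 and 5.13 ± 1.73 CPM in J110 and 0 or 1 count in each SSM3 library.

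Large drops in 1 library were rare. Among the 8867 genes tested whose highest SSM3 library reached 10 CPM, 15 had a library at least 4-fold below both others, and in all 15 that library was SSM3 replicate 3. In 3 of them, Sdhd, Snhg6 and Mrps28, the library was at least 10-fold below both others. None of the 9056 J110 genes at that level had such a drop. Sdhd, a subunit of succinate dehydrogenase, had 59, 71 and 4 counts in SSM3, and Mrps28, a mitochondrial ribosomal protein, had 43, 54 and 4. In Snhg6 the middle SSM3 library was 13.9 times the lowest and in Snhg8 2.54 times, whereas in the other 8 RNAs this ratio was between 1.06 and 1.55. These genes were picked out after their values were seen, and what set them apart was not tested. Mcmdc2, which runs towards Snhg6 on the opposite strand and shares 127 exonic bases with it, had 176, 219 and 157 counts in J110 and 40, 45 and 2 in SSM3, so it dropped in the same library and the reads of the pair cannot be told apart.

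**Figure D4:**
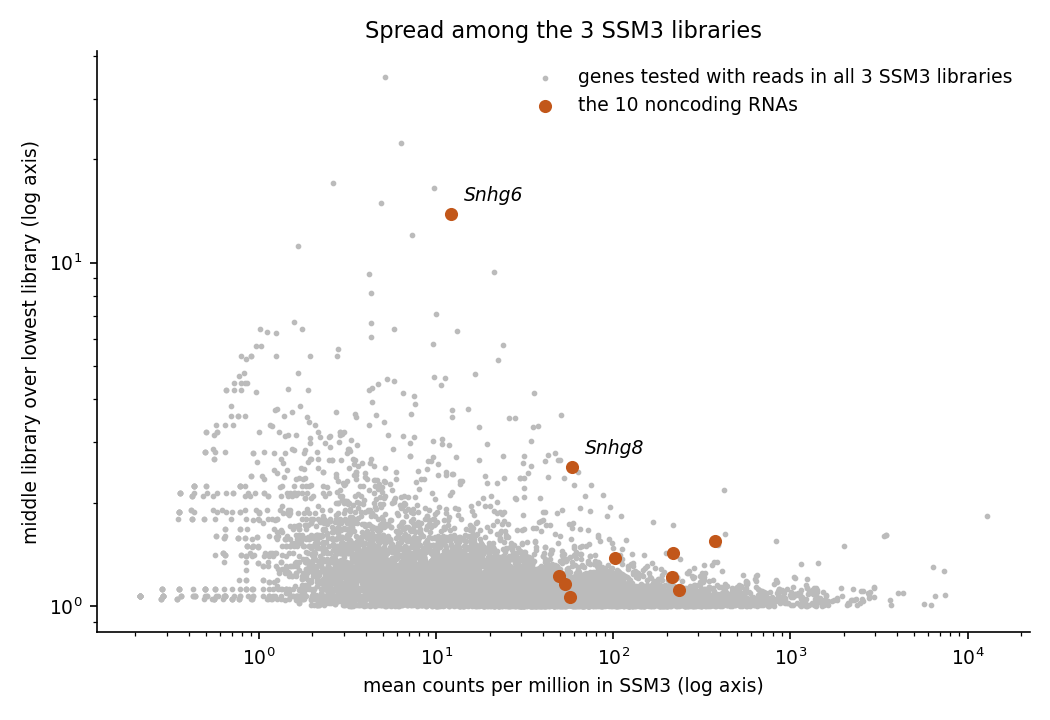
Ratio of the middle to the lowest SSM3 library against mean CPM in SSM3, both on log axes, for all genes tested with reads in the 3 SSM3 libraries (grey) and the 10 noncoding RNAs (orange). Snhg6 lies at 13.9 and Snhg8 at 2.54, above most genes of a like level.

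Other snoRNA hosts moved in both directions as well. Of 15 listed symbols, 10 genes were tested, and 4 were higher in SSM3, 3 were lower and 3 did not pass, with a median log2 fold change of 0.21. Snhg9 rose from 29.2 ± 2.76 to 346 ± 24.9 CPM (log2 fold change 3.57, edgeR adjusted p = 6.8e-15). It overlaps Rps2, a ribosomal protein gene on the opposite strand, which had 657 to 775 counts in J110 and 233 to 426 in SSM3, so the pair differed in opposite directions. Gm12940 fell from 76.8 ± 3.91 to 38.3 ± 11.9 CPM (edgeR adjusted p = 2.0e-05). It overlaps Sfpq on the same strand, which had 1456 to 2112 counts in a library, and Zmym1 on the opposite strand. Its count may include reads of either, so the fall cannot be assigned to Gm12940. Zfas1 was at 159 ± 6.08 in J110 and 143 ± 3.03 in SSM3 (edgeR adjusted p = 0.0677). Snhg18 was at 4.37 ± 1.0 CPM in J110 and had no count in SSM3, which is below the floor of 3 counts, and the median stayed at 0.21 with Snhg18 set at that floor.

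Of 28 other long noncoding RNAs listed, 12 were tested, and 4 were higher in SSM3 and 6 lower, with a median log2 fold change of -0.39. Xist, the RNA that coats the inactive X chromosome, fell from 421 ± 22.0 to 305 ± 16.0 CPM (log2 fold change -0.46, edgeR adjusted p = 1.7e-05). Kcnq1ot1, an imprinted antisense RNA, rose from 67.4 ± 4.98 to 101 ± 12.3 (edgeR adjusted p = 6.1e-05), and Tug1 rose from 57.7 ± 5.88 to 73.5 ± 9.87 (edgeR adjusted p = 0.0079). Airn, the antisense RNA of the Igf2r imprinted locus, was at 7.29 ± 1.53 in J110 and at 0.071 ± 0.12 in SSM3, and Mir99ahg was at 3.45 ± 1.13 and 0.14 ± 0.12.

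The proteins that work with these RNAs were counted next. Of 20 paraspeckle proteins, 7 were higher in SSM3, 8 were lower and 5 did not pass, with a median log2 fold change of 0.04. Hnrnpk rose from 764 ± 118 to 1397 ± 55.2 CPM (log2 fold change 0.87, edgeR). Hnrnpa1 fell from 711 ± 64.3 to 377 ± 6.09 (-0.92) and the cold-inducible Rbm3 from 589 ± 30.1 to 200 ± 7.48 (-1.56). Of 18 nuclear speckle and splicing proteins tested, 15 were lower in SSM3 and 2 higher, with a median log2 fold change of -0.52 against -0.01 for all genes, of which 39.2% were called lower. Son, a core speckle protein, fell from 540 ± 33.8 to 386 ± 8.68 CPM, and Srsf10 showed the largest difference, from 196 ± 3.77 to 67.9 ± 3.23 (log2 fold change -1.53). Srrm2, the other core speckle protein, did not pass, at 373 ± 12.5 and 410 ± 22.4.

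Of 23 factors of nonsense-mediated decay and the decapping that follows, 7 were higher in SSM3 and 11 lower, with a median log2 fold change of -0.37. The exon junction protein Eif4a3 rose from 119 ± 19.6 to 263 ± 11.1 CPM (log2 fold change 1.15, edgeR). Etf1, the release factor that ends translation, fell from 210 ± 3.35 to 98.0 ± 8.90 (-1.10), and the decapping factor Dcp1a was lower at 3.45 ± 2.60 against 11.8 ± 0.79 (-1.79). Of 19 proteins of snoRNPs and their assembly, 7 were higher, 7 lower and 5 did not pass, with a median of 0.13. Snu13, which binds the snoRNA fold first, rose from 251 ± 15.4 to 437 ± 7.47 CPM, whereas Nop58 fell from 522 ± 27.3 to 319 ± 22.1 and the assembly factors Rpap3 and Nufip1 fell, with log2 fold changes of -2.15 and -2.08.

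The mRNAs with a terminal pyrimidine run that do not code for ribosomal proteins were split as well. Of 19 tested, 9 were higher in SSM3 and 9 lower, with a median log2 fold change of 0.20. Tpt1 fell from 4349 ± 42.3 to 1277 ± 69.2 CPM (log2 fold change -1.77, edgeR), Pabpc1 from 3285 ± 127 to 1212 ± 147 (-1.44) and Eef1a1 from 7410 ± 262 to 6230 ± 578 (-0.25). Of the 18 nearest protein-coding neighbours of the 10 RNAs, 15 were tested, with 4 higher in SSM3, 7 lower and a median of -0.14. Syncrip, the nearest such gene on the side of Snhg5 with lower coordinates, fell by 1.04 on the log2 scale (edgeR adjusted p = 2.0e-09). For the lists as a whole, between 70.0 and 94.7% of the genes tested were called, beside 77.9% of all genes.

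**Figure D5:**
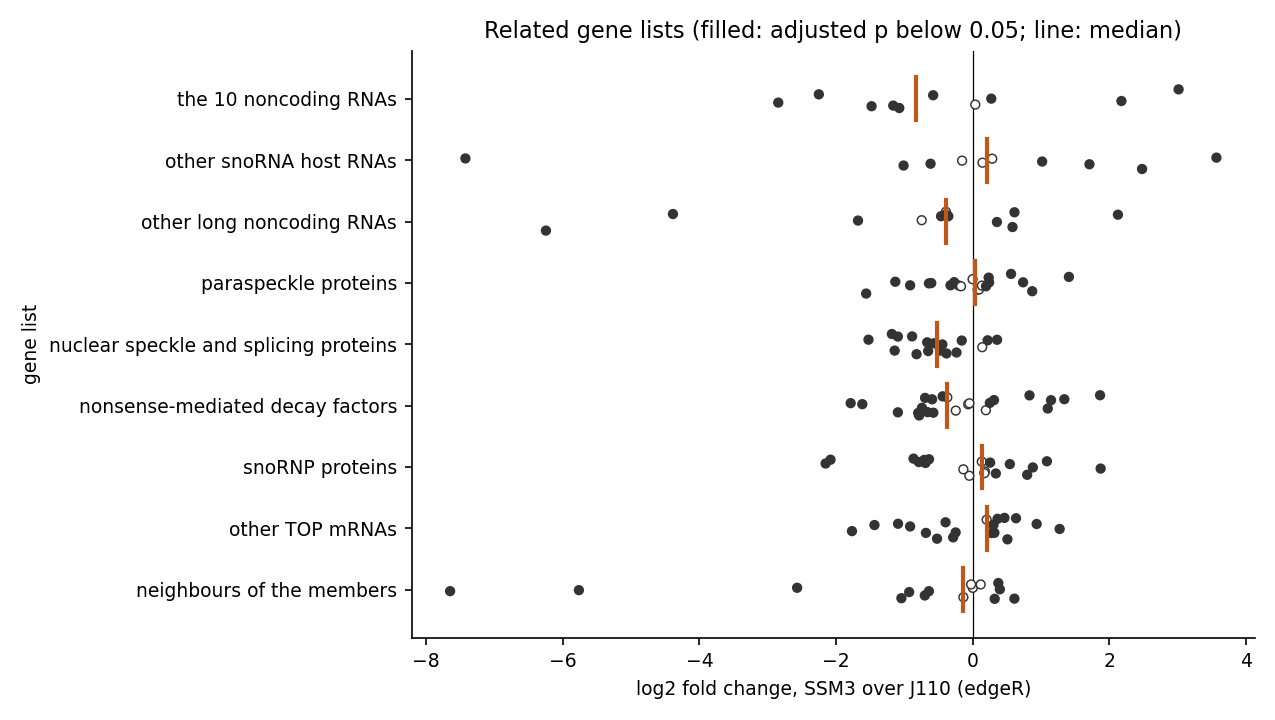
Log2 fold change of SSM3 over J110 (edgeR) for the 10 noncoding RNAs and 8 related gene lists, 1 point per gene, filled where the adjusted p was below 0.05, with an orange line at each list's median. Medians run from -0.83 for the noncoding RNAs to 0.21 for the other snoRNA hosts, and the points far to the left (Snhg18, Ndst3, Airn and Prss12) had at most 1 count in each SSM3 library.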

How the data were processed

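RNA of 3 J110 and 3 SSM3 libraries was sequenced by QuantSeq 3′. The authors' notes name cutadapt 2.1, HISAT2 2.0.4, Subread featureCounts 2.0.0 and mm10. The deposited values are raw counts per Ensembl gene. Strand, overlap and multimapping settings are not given in the sources used here. Of 52636 gene identifiers, 99.7% matched GENCODE M21, which gave symbols and coordinates. Counts were filtered with filterByExpr, scaled by TMM and fitted with edgeR 4.0.16 (R 4.3.3) in the 6 libraries, and p-values were adjusted over the 12284 genes tested. Shares and ratios were compared with exact permutation tests (scipy 1.17.1). Alternatives used DESeq2 1.42.0, limma 3.58.1, other scalings and filters, a replicate block and left-out libraries. The edgeR fit was tested on simulated data. Between replicates, counts differed by 2.21 to 5.62 times the sampling variance (chi-square per degree of freedom), so each was kept as a separate library. The 10 RNAs and the related lists were chosen with earlier results of these data known. Of each list the text gives the number tested and called, the median, the 3 genes with the highest mean level and the 2 called genes with the largest change, with a few others from the list where they bear on a sentence. A few genes that these rules name are not reported here.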

Additional observations from a re-analysis of the deposited data

How the results depend on the processing

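Under 15 of the 16 alternative settings, 3 of the 10 RNAs were called higher in SSM3 cells and 5 or 6 lower; with at least 10 counts required in every library, Snhg6 was not tested. With glmTreat above 2-fold, 2 were higher and 3 lower, and over all genes 2094 were higher and 2178 lower. Leaving out each library in turn gave 3 higher and 6 lower each time, with 4581 to 4698 genes higher and 4667 to 4889 lower over all genes. Epb41l4aos changed sign without J110 replicate 3 (-0.0205) and without SSM3 replicate 2 (-0.0256), ranged up to 0.124 over left-out libraries, and was not called in any setting. Snhg6 ranged from -3.61 (limma-voom) to -2.28 (without SSM3 replicate 3). Without TMM scaling, the median log2 fold change over the genes tested moved from -0.01 to 0.16 and the calls from 4746 higher and 4820 lower to 5373 and 4140, and no call among the 10 changed.

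The share of Malat1 ranged from -0.0831 to -0.0624 percentage points (SSM3 minus J110) over left-out libraries and that of Neat1 from -0.0112 to -0.00804; without the ribosomal RNA locus the latter was -0.0132. The difference in the log2 ratio of Malat1 to Neat1 (SSM3 minus J110) ranged from -1.33 to -0.859. Same-numbered libraries deviated together by correlations of 0.012 to 0.027, and differently numbered ones by -0.021 to 0.0076. The same-numbered values were thus the higher, but all were small, and whether the numbers pair the libraries was not tested. With a replicate block, 3 RNAs were higher and 6 lower, and 4705 and 4776 genes over all genes, and that difference was -1.16 (exact permutation p = 0.25, the smallest that 3 pairs allow). At this depth Snhg12 in J110 and Snhg6 in SSM3 rested on 35 counts or fewer and 84 or fewer per library.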
